A study of Mus musculus with 24 samples.

Results

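The MHC class II genes H2-Aa, H2-Ab1, H2-Eb1, H2-DMa, H2-DMb2 and Cd74 were followed across 10 groups of mouse leukocytes. Every probe set annotated to exactly 1 of these genes was taken, whatever its values, which gave 7 probe sets of 12422 for 6 genes of 8251. H2-DMa has 2 probe sets, called here the brighter and the dimmer one, and the other genes have 1 each. A further probe set is annotated to both H2-DMb2 and its neighbour H2-DMb1 and is listed without being counted.

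RNA of sorted cells had been hybridised to 24 oligonucleotide arrays. B6g7 mice are C57Bl/6 animals homozygous for the H2g7 haplotype, and NOD is the diabetes-prone strain that carries H2g7 naturally, so both share one class II region. Infiltrates and T cells came from mice with the BDC2.5 T cell receptor transgene, whose CD4 T cells recognise pancreatic islets. The labels call their islet lesion aggressive on B6g7 and benign on NOD. Viable CD45+ cells of the pancreas, the total infiltrate, were measured in 3 B6g7 arrays (24, 25 and 28 days of age) and 3 NOD arrays (25 days). CD4+ clonotype-high T cells were sorted from the pancreas (2 B6g7 arrays at 22 and 25 days, 3 NOD arrays at 24 or 25 days) and from the pancreatic lymph nodes (2 B6g7 arrays at 22 and 25 days, 3 NOD arrays at 22 to 25 days). Splenic NK cells were sorted as viable CD45+ Asialo GM1+ cells from B6g7 mice without the transgene (2 arrays, at 3 and 6 weeks) and from NOD mice (2 arrays, age not given). The second NOD NK array is described as coming from a BDC2.5 mouse. Viable CD45+ splenic leukocytes (2 B6g7 and 2 NOD arrays, age and transgene not given) serve as the submitters' reference for the infiltrates. Nothing in the labels tells separate animals from pools or repeat hybridisations, so a p-value here covers the spread of these arrays only, and their small number limits precision.

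Some properties of the arrays bear on all results. RNA was amplified in 1 round for the spleen and in 2 rounds for all other groups. The probe set at the 3′ end of Gapdh exceeded that at its 5′ end by 0.33 (B6g7) and 0.22 (NOD) log2 units in the spleen. The same difference averaged 2.96 to 3.32 in infiltrates, 3.05 to 3.85 in T cells and 4.65 to 5.13 in NK cells. Liver transcripts (Alb above 6 on the log2 scale) were present in 6 arrays, among them 2 of 3 B6g7 infiltrates and 1 of 2 B6g7 pancreatic T cell arrays. All values below are log2 intensities. The level of absent transcripts was set at 6.56, the 90th percentile of 27 transcripts of muscle, brain, eye, testis and other tissues over the 24 arrays. A group mean at or under it gives only an upper limit. Folds against such a mean are bounds taken against that level.

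Class II molecules display peptides from endosomes to CD4 T cells. H2-Aa and H2-Ab1 encode the alpha and beta chains of I-A, the only complete classical class II molecule of H2g7 mice, and H2-Eb1 encodes the beta chain of I-E, whose alpha chain gene H2-Ea is defective in this haplotype. Cd74, the invariant chain, escorts new class II molecules to endosomes and blocks their groove, and the H2-DM dimer (H2-DMa with H2-DMb1 or H2-DMb2) exchanges the last invariant chain fragment for peptide. B cells, dendritic cells and activated macrophages carry these proteins, while mouse T cells and NK cells normally make little.

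Class II promoters are known for an X box, bound by RFX and CREB family factors, and a Y box, bound by NF-Y, on which the co-activator Ciita assembles. Promoters of 3 genes are shown: 2 classical chains, H2-Aa and H2-Eb1, whose transcripts were spread alike over the groups described next, and H2-DMb2, whose transcript was spread differently. The sequences are from RefSeq (GRCm38.p6), which comes from C57BL/6J, a strain with another class II haplotype than these mice. Each runs from 250 bases before to 50 bases after the annotated start, with capitals marking matches to the X box letters (CTA, NNN, AC, N and GATG in a row, N being any base) or the Y box letters (TGATTGG). H2-Eb1 lies at chr17:34305617-34305916 on the plus strand, H2-DMb2 at chr17:34144999-34145298 on the plus strand and H2-Aa at chr17:34287774-34288073 on the minus strand.
H2-Eb1: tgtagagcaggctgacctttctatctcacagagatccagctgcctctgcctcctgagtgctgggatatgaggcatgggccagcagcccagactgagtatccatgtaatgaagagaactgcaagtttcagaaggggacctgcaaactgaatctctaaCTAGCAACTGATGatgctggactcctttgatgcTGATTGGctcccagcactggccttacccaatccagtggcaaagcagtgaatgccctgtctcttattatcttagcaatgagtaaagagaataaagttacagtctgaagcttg
H2-DMb2: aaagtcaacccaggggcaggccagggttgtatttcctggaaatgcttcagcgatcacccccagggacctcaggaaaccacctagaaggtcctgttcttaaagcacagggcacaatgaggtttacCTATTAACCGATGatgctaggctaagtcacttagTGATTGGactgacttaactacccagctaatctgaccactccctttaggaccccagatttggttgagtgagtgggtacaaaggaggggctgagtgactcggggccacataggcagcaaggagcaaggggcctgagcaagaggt
H2-Aa: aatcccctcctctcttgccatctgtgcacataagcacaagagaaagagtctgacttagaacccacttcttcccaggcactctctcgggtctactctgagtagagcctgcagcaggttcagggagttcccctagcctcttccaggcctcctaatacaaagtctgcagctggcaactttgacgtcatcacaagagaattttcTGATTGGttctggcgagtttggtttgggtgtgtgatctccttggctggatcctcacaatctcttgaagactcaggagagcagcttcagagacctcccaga
Both motifs were searched on both strands, and their letters were chosen after the sequences had been viewed. In H2-Eb1 the X match, CTAGCAACTGATG, began 94 bases before the start and the Y match 61 bases before it, with 20 bases between them. In H2-DMb2 the X match, CTATTAACCGATG, began 126 bases before the start and the Y match 92 bases before it, with 21 bases between. H2-Aa held the Y letters only, 50 bases before its start. Only exact matches were marked, so an X box with other letters would be missed. Neither set of letters was in the 2 windows listed for H2-DMa. The promoter of H2-DMb1 held both, again with 21 bases between. Of 32851 promoters of this length, 0.146% held the X letters, 7.82% the Y letters and 0.0244% (8 promoters) both. Promoters of H2-Ab1 and Cd74 were not used here.

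Across populations the classical chains fell into one order, spleen above infiltrate above NK cells above T cells. H2-Aa read 12.19 and 12.29 in the B6g7 spleens and 12.24 and 12.35 in the NOD spleens. In the infiltrates it read 12.19, 11.67 and 11.05 (B6g7) and 11.57, 11.94 and 11.22 (NOD). In NK cells it read 8.01 and 8.85 (B6g7) and 9.09 and 9.80 (NOD). Spleen and infiltrate thus met at 12.19, while every NK array lay below every infiltrate array. The 10 T cell arrays lay lower still, between 4.89 and 6.22, all under the level of absent transcripts.

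H2-Ab1, the partner of H2-Aa, was tight in the spleen (10.90 to 11.00 over 4 arrays) and wide in the infiltrate. It read 9.84, 9.60 and 8.55 in B6g7 infiltrates and 9.71, 10.22 and 8.83 in NOD infiltrates. NK cells gave 7.003 and 7.50 (B6g7) and 7.86 and 8.55 (NOD), so the highest NK array met the lowest infiltrate array. H2-Eb1 read 11.67 to 11.86 in the spleen, then 11.45, 10.85 and 10.23 (B6g7) and 11.00, 11.54 and 10.38 (NOD) in the infiltrates. Its NK values were 8.03 and 8.96 (B6g7) and 9.07 and 9.83 (NOD), all below the infiltrates. T cells gave 5.25 to 5.73 for H2-Ab1 and 5.62 to 6.77 for H2-Eb1.

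Cd74 was spread differently. It read 12.68 and 12.88 in the B6g7 spleens and 12.69 and 12.91 in the NOD spleens. The infiltrates gave 10.65, 9.14 and 8.24 (B6g7) and 10.11, 10.25 and 8.54 (NOD). NK cells gave 8.57 and 9.27 (B6g7) and 10.06 and 10.21 (NOD). Infiltrate and NK arrays therefore overlapped for the invariant chain, and both lay below all spleens. T cells lay between 5.43 and 6.77.

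H2-DMb2, a beta chain of the peptide exchanger, had a group mean above the level of absent transcripts in the spleen alone. It read 9.78 and 9.95 (B6g7) and 10.14 and 9.96 (NOD) there, and 6.62, 6.14 and 5.96 (B6g7) and 6.16, 6.45 and 6.37 (NOD) in the infiltrates. NK cells (5.54 to 6.00) and T cells (5.37 to 6.04) had no order beyond their spread at this level. H2-DMb1 and H2-DMb2 are close copies, and how each probe set splits their signal is uncertain. The probe set annotated to both read 9.75 to 10.15 in the spleen, 7.37 to 7.74 in the infiltrates, 4.12 to 5.79 in NK cells and 3.40 to 4.20 in T cells.

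H2-DMa, the alpha chain, depended on the probe set. By the brighter one it read 9.59 to 9.89 in the spleen, 8.13 to 9.41 in infiltrates, 6.71 to 7.30 in NK cells and 5.82 to 6.95 in T cells, the last pair overlapping. By the dimmer one the same populations read 7.62 to 7.87, 7.34 to 7.77, 7.01 to 7.55 and 5.74 to 6.95. The dimmer probe set thus spanned 2.13 log2 units over all arrays against 4.07 for the brighter. Of 70 group means of the 7 probe sets, 30 were at or under the level of absent transcripts. Of the group means of all probe sets, 74.9% were. By the brighter H2-DMa probe set, all 6 genes were there in the pancreatic T cell groups and the NOD lymph node T cells, and H2-DMb2 also in infiltrates and NK cells.

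**Figure D1:**
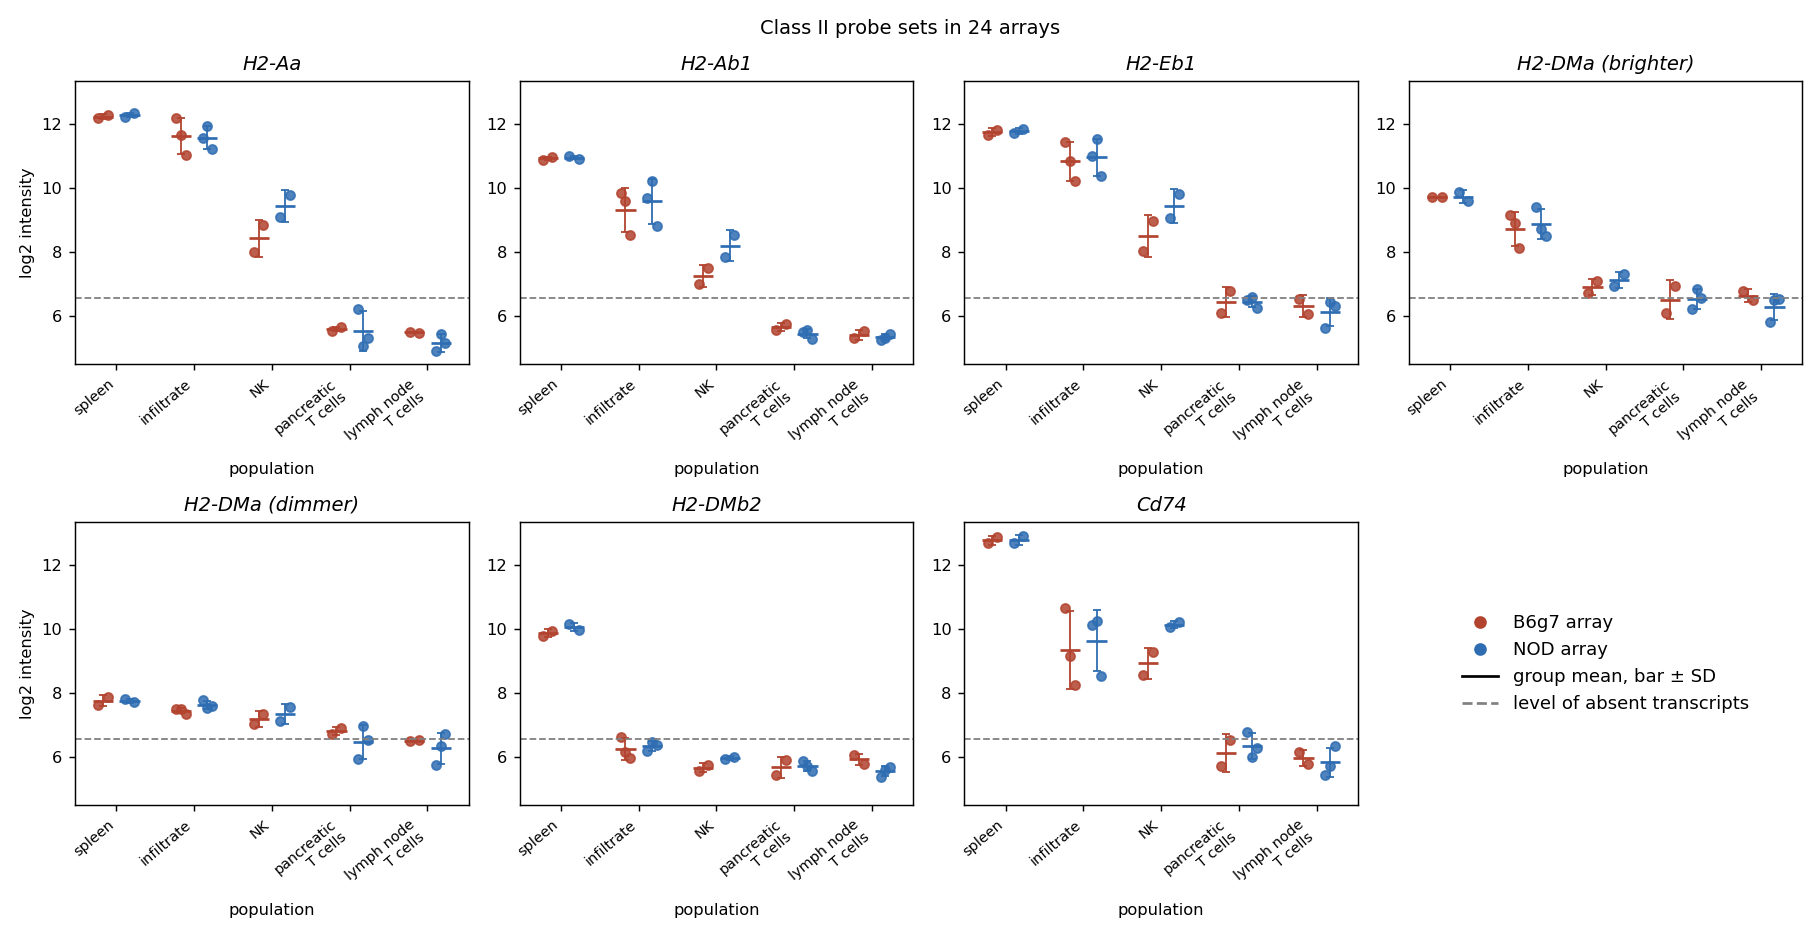
Log2 intensity (vertical axis) of the 7 probe sets in each array, by population (horizontal axis) and background (colour), with group means and SD bars; the dashed line is the level of absent transcripts at 6.56. H2-Aa, H2-Ab1 and H2-Eb1 step down from spleen to T cells, Cd74 reads alike in infiltrate and NK cells, and H2-DMb2 is above the line in spleens and 1 infiltrate array.

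The comparison of aggressive with benign infiltrates asked whether the class II machinery differed in RNA level between the lesions. No member differed detectably. None of 7 probe sets passed an adjusted p of 0.05 (limma, two-sided, Benjamini-Hochberg adjusted over all probe sets), where 0.274% of all probe sets did. The 3 infiltrate arrays of each background overlapped for 6 of 7 probe sets. The exception was the dimmer probe set of H2-DMa, at 7.34 to 7.50 in B6g7 and 7.53 to 7.77 in NOD (difference -0.18, adjusted p = 0.999, limma). How many of all probe sets overlapped was not counted, so nothing is drawn from this overlap. The median B6g7 minus NOD difference over the probe sets was -0.15, against -0.02 over all probe sets. For H2-Aa the means were 11.64 ± 0.57 and 11.58 ± 0.36 (SD, n = 3 each), a difference of 0.06 with a 95% interval of -0.61 to 0.73. For Cd74 the means were 9.34 ± 1.22 and 9.63 ± 0.95, a difference of -0.29 with an interval of -1.35 to 0.77. H2-Ab1 differed by -0.26 (-0.93 to 0.41), H2-Eb1 by -0.13 (-0.87 to 0.60) and H2-DMa by -0.15 (-0.78 to 0.49, brighter probe set). The interval of Cd74 therefore still holds differences of more than 1 log2 unit toward NOD.

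Replicate 3 of both infiltrates was the lowest of its group for H2-Aa, H2-Ab1, H2-Eb1, Cd74 and the brighter probe set of H2-DMa. These arrays have neighbouring serial codes in the labels, which do not say what the codes stand for. Within that pair the B6g7 minus NOD difference was -0.17 for H2-Aa and -0.30 for Cd74. Within the other run of neighbouring codes, with 1 B6g7 and 2 NOD arrays, it was 0.44 for H2-Aa and 0.47 for Cd74. The direction thus differed between the runs for both genes. RMA, a normalisation method, is named for all B6g7 infiltrates and no NOD infiltrate, so processing and background cannot be told apart there. In the spleen and in pancreatic T cells it is named for the NOD arrays only. Within each background the naming separates infiltrate from spleen and from pancreatic T cells. It also separates the T cell sites in NOD and NK cells from spleen in B6g7. Processing cannot be told apart in those comparisons either.

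In the other populations, too, 0 of 7 probe sets passed between backgrounds. The share of all probe sets that passed was 0.0725% in the spleen and 0.0483% in NK cells. It was 0.145% in T cells of the pancreas and 0.129% in those of the lymph nodes. Spleen differences were small, with a median over the probe sets of -0.03 and an interval of -0.87 to 0.78 for H2-Aa. In NK cells both B6g7 arrays lay below both NOD arrays for H2-Aa, H2-Ab1, H2-Eb1, Cd74 and H2-DMb2. H2-DMb2 was at the level of absent transcripts there. How many of all probe sets separated so in NK cells was not counted, so nothing is drawn from this separation. H2-Aa differed there by -1.01 (-1.84 to -0.19) and Cd74 by -1.22 (-2.51 to 0.08), each with an adjusted p of 1.0 from limma. At an unadjusted p under 0.05, 3 of 7 probe sets passed in NK cells (H2-Aa, H2-Ab1 and H2-Eb1) and 0 in each other population. Of all probe sets, 1.26% had such a p in NK cells. The B6g7 NK arrays differ in age from each other, and the age of the NOD NK arrays is not given. For 1 NOD NK array the labels also name the transgene. The summed intensity of 16 B cell markers was 2452 to 3579 in the B6g7 and 3602 to 3905 in the NOD NK arrays, with Cd22 at the level of absent transcripts in B6g7 and not in NOD. The part of these values in the class II difference was not tested.

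**Figure D2:**
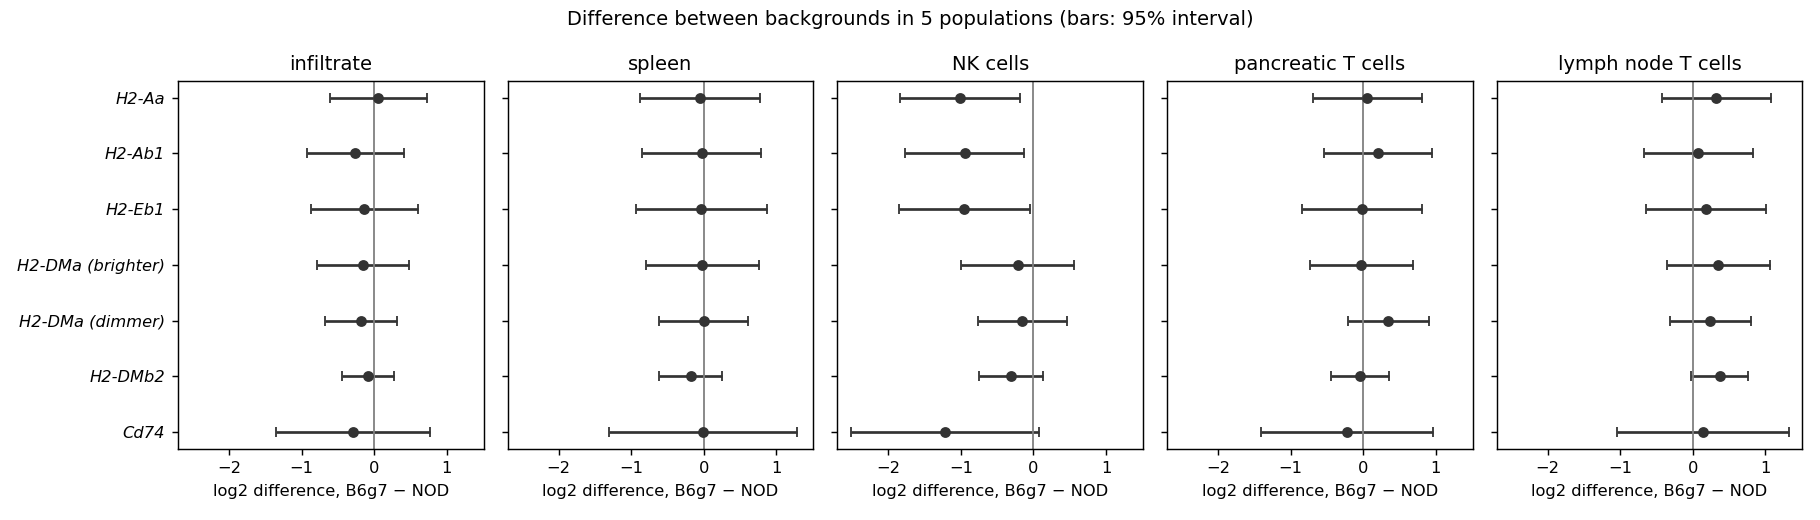
B6g7 minus NOD difference in log2 intensity (horizontal axis) for each probe set (vertical axis) in 5 populations, with 95% intervals from the limma fit. Points of infiltrate and spleen lie near 0, and the widest shift is in NK cells, where Cd74 differs by -1.22 and H2-Aa by -1.01.

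Against the spleen, the reference named by the labels, the infiltrate was lower for 3 of 7 probe sets in each background. These were H2-Ab1, H2-DMb2 and Cd74, where 4.64% of all probe sets were lower in B6g7 and 5.26% in NOD. Cd74 fell by 3.44 log2 units in B6g7 (SE 0.56, adjusted p = 0.000758, limma), which is 10.8-fold. In NOD it fell by 3.17 (SE 0.56, adjusted p = 0.00137), or 8.97-fold. The B6g7 fold of Cd74 was 17.1 without infiltrate replicate 1, and 23.3 without the arrays carrying liver transcripts. The latter kept 1 B6g7 infiltrate, replicate 3, the lowest for Cd74 at 8.24. H2-Ab1 was then 5.23-fold lower in B6g7, against 3.04-fold with all arrays. H2-DMb2 fell to the level of absent transcripts and was at least 9.93-fold lower in B6g7 (adjusted p = 1.17e-09) and at least 11.3-fold lower in NOD (adjusted p = 6.60e-10). H2-Ab1 fell by 1.61 in B6g7 (SE 0.35, adjusted p = 0.0084) and by 1.37 in NOD (SE 0.35, adjusted p = 0.0215). H2-Ab1 lost its call in B6g7 when either spleen array was left out (adjusted p = 0.0786 and 0.0871). It lost the NOD call without either spleen array (0.176 and 0.122) or without infiltrate replicate 3 (0.0858).

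The partner chains did not pass in this comparison. H2-Aa differed by -0.60 (-1.36 to 0.15) in B6g7 and -0.71 (-1.46 to 0.04) in NOD. H2-Eb1 differed by -0.92 (-1.74 to -0.09) in B6g7 and -0.81 (-1.64 to 0.01) in NOD. H2-DMa differed by -0.99 and -0.86 by the brighter probe set and by -0.30 and -0.13 by the dimmer one. Without the arrays carrying liver transcripts, the brighter probe set differed by -1.59 in B6g7. That value rests on infiltrate replicate 3 alone, the lowest B6g7 infiltrate at 8.13. In NOD the compared arrays were the same and the difference stayed at -0.86. It passed there with an SE of 0.24 in place of 0.34. The median over the 7 probe sets was -0.99 in B6g7 and -0.86 in NOD, against 0.01 and 0.06 over all probe sets.

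Because all members were read on the same arrays, each can be set against H2-Aa within an array, and that ratio compared between arrays of different populations. The log2 ratio of Cd74 to H2-Aa ran from 0.45 to 0.58 in the 4 spleens and from -2.82 to -1.46 in the 6 infiltrates, a shift of the mean by -2.64. In the 4 NK arrays it ran from 0.42 to 0.98, around the spleen values. Cd74 was therefore lower relative to H2-Aa in every infiltrate array than in any spleen or NK array. The ratio of H2-Ab1 to H2-Aa behaved alike, at -1.42 to -1.24 in spleens, -2.51 to -1.72 in infiltrates and -1.34 to -1.01 in NK cells. That of H2-Eb1 moved by -0.21 between spleen and infiltrate, with overlapping arrays, and by 0.53 between spleen (-0.52 to -0.45) and NK cells (-0.02 to 0.12), with no overlap. Between spleen and NK cells the ratio of H2-DMa moved by 0.61 (brighter probe set) and 2.84 (dimmer), and that of H2-DMb2, at the level of absent transcripts in NK cells, by -0.83. The NK ratios thus stayed near the spleen for Cd74 and H2-Ab1 and left it for the other members. The difference between these ratios was not tested.

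**Figure D3:**
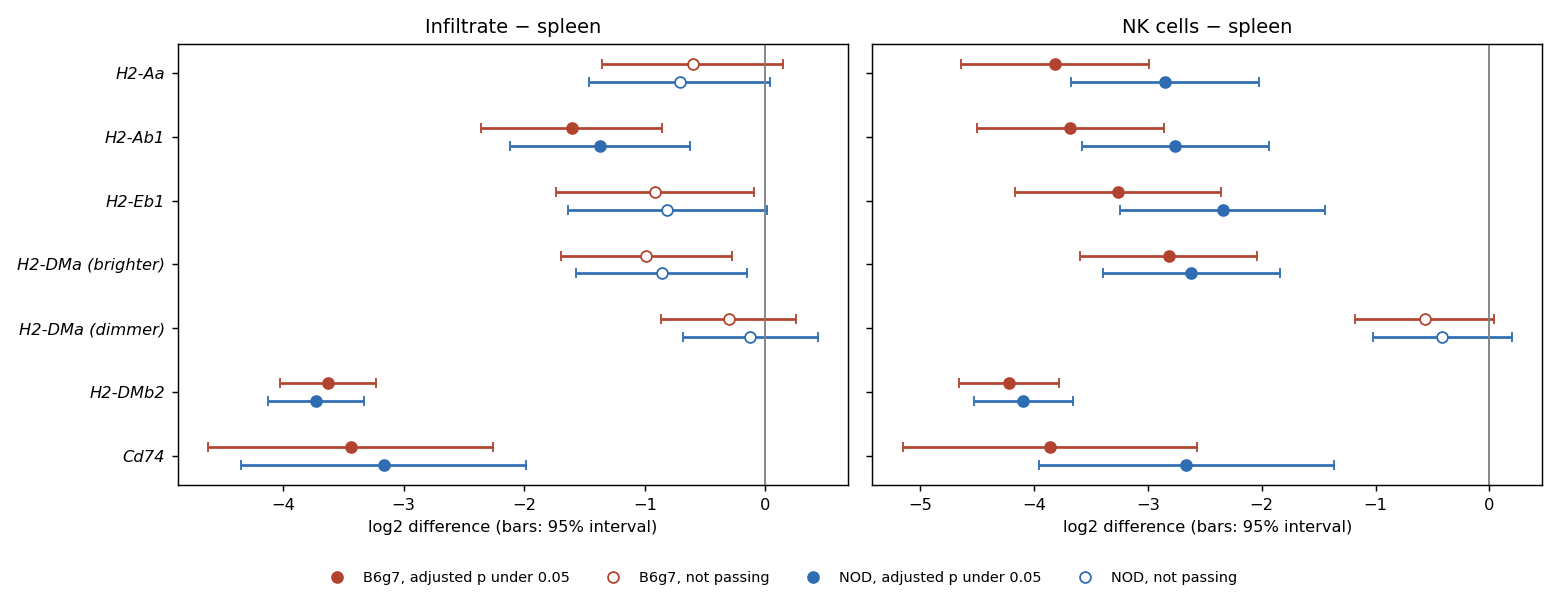
Difference from the spleen in log2 intensity (horizontal axis) for each probe set (vertical axis), in the infiltrate (left) and in NK cells (right), for B6g7 and NOD, with 95% intervals; filled points have an adjusted p under 0.05. In the infiltrate H2-DMb2 and Cd74 lie below -3 while H2-Aa lies at -0.60 and -0.71, and in NK cells H2-Aa and Cd74 lie side by side.

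Spleen and infiltrate differ in amplification rounds as well as in tissue, and the spread of 3′ and 5′ Gapdh signal moved with them, so tissue and amplification cannot be told apart in this comparison. The RNA of cell type markers moved too. Of 16 B cell markers 12 were lower in the B6g7 infiltrate and 11 in the NOD infiltrate than in spleen, with none higher. Their summed intensity fell from a range of 16680 to 17200 in B6g7 spleens to 4945 to 8383, and from 15680 to 15750 in NOD spleens to 5029 to 7613. Vpreb3 was as low as absent transcripts in both infiltrates and above that level in the spleens, while Cr2 and Ebf1 were at that level in spleens and infiltrates alike. Of 16 macrophage and monocyte markers, 5 were higher in B6g7 and 8 in NOD infiltrates, with sums of 2566 to 4131 and 3149 to 6283 against 1093 to 1629 in the spleens. Mrc1, Marco, Msr1, Itgam, Fcgr1 and Fcgr3 stayed at the level of absent transcripts. Of 13 dendritic cell markers, 1 was lower and 0 higher in each background, with sums of 2107 to 2779 against 3054 to 3695, and Zbtb46, Xcr1 and Ccl17 at the level of absent transcripts throughout. Their part in the class II differences was not tested. In such bulk samples, fewer cells of a type and less RNA per cell cannot be told apart.

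**Figure D4:**
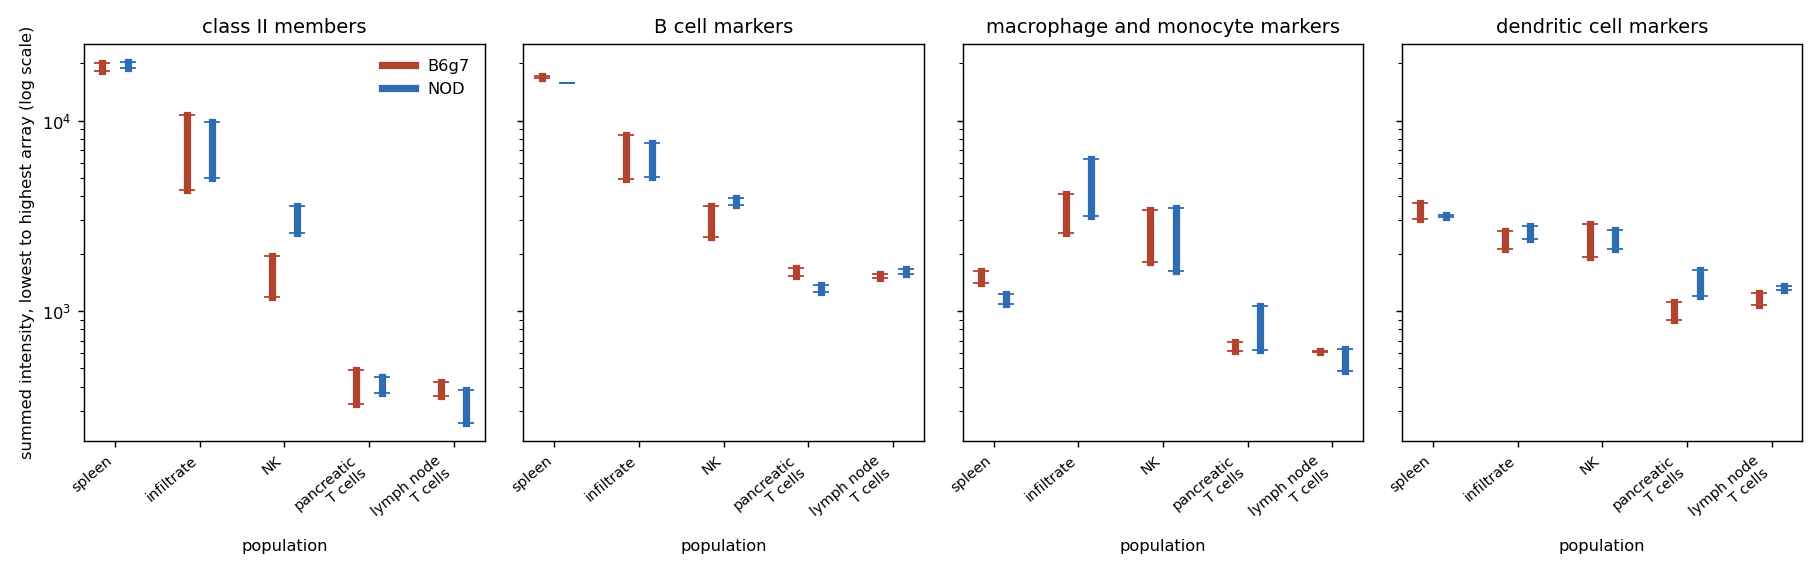
Summed intensity on a log scale (vertical axis) of the 6 class II genes, 16 B cell, 16 macrophage and monocyte, and 13 dendritic cell markers, from the lowest to the highest array of each population (horizontal axis) and background (colour). Class II and B cell sums step down from spleen to T cells, while macrophage sums are highest in infiltrates, at up to 6283.

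Set against T cells sorted from the same organ, the total infiltrate carried far more class II RNA. In B6g7, 5 of 7 probe sets were higher, where 2.33% of all probe sets were, and in NOD 6 of 7, where 2.87% were. H2-Aa was at least 33.9-fold higher in B6g7 (difference 6.05, SE 0.36, adjusted p = 1.80e-08, limma) and at least 32.5-fold higher in NOD (6.05, SE 0.32, adjusted p = 2.84e-09). H2-Eb1 was at least 19.5-fold and 21.4-fold higher, H2-Ab1 at least 6.84-fold and 8.18-fold, and Cd74 at least 6.91-fold and 8.44-fold. H2-DMa was at least 4.51-fold and 5.0-fold higher by the brighter probe set. By the dimmer one it passed in NOD (1.17, adjusted p = 0.00795, but 0.0518 without infiltrate replicate 1) and not in B6g7 (0.64, adjusted p = 0.292). H2-DMb2, no higher than absent transcripts in either population, differed by 0.57 (adjusted p = 0.147) and 0.62 (adjusted p = 0.0572).

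These differences were clear of the spread for the classical chains, where no infiltrate array came within 1 log2 unit of a T cell array. In B6g7, Cd74 and H2-DMa rested on fewer arrays. Leaving out the 6 arrays with liver transcripts kept 1 B6g7 pancreatic T cell array and 1 B6g7 infiltrate. That infiltrate was replicate 3, the lowest for both genes. Cd74 then differed by 1.71 and H2-DMa by 1.18 (brighter probe set), and neither was called. The bounds for H2-Eb1 and H2-Ab1 were then 10.95-fold and 3.98-fold. Without infiltrate replicate 1 of B6g7, the bound for Cd74 was 4.39-fold. Without pancreatic T cell replicate 1 of B6g7, Cd74 differed by 2.81 (adjusted p = 0.0982). Markers of B cells moved in the same direction, with 11 of 16 higher in the B6g7 and 12 in the NOD infiltrate than in T cells. So did markers of macrophages and monocytes, with 9 and 8 of 16 higher, and of dendritic cells, with 5 and 3 of 13 higher, and 0 lower in either list. The part of these cells in the class II differences was not tested. The T cell arrays had B cell sums of 1256 to 1676. Of the 16 B cell markers, 11 (B6g7) and 12 (NOD) were at the level of absent transcripts at each site. Cd79a, Cd79b, Cd22 and Pax5 were among them. Ighm, Cd37, Spib and Fcer2a lay above that level in every T cell group, and Ms4a1 did so in B6g7 only.

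Between T cells of the pancreas and those of its lymph nodes, no class II probe set passed. All 7 were compared in each background, where 0% (B6g7) and 0.0161% (NOD) of all probe sets passed. At an unadjusted p under 0.05, 81 and 2263 of all probe sets passed and 0 of 7 class II probe sets in either. With the replicate number as a block shared by all arrays, 0 of all probe sets passed in either background. This block does not pair pancreas with lymph node arrays, and a paired test was not run. For H2-Aa the pancreas minus lymph node difference was 0.11 (-0.72 to 0.93) in B6g7 and 0.37 (-0.31 to 1.04) in NOD. For Cd74 it was 0.15 (-1.14 to 1.45) and 0.51 (-0.54 to 1.57). Most of these means lay at the level of absent transcripts, where smaller true differences could not be measured.

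Splenic NK cells were lower than whole spleen for 6 of 7 probe sets in both backgrounds, where 7.43% (B6g7) and 7.48% (NOD) of all probe sets were lower. In B6g7, H2-Aa fell by 3.81 (SE 0.39, adjusted p = 3.17e-06, limma), a fold of 14.1, and Cd74 fell by 3.86 (SE 0.61, adjusted p = 0.000335), a fold of 14.5. In NOD, H2-Aa fell by 2.85 (adjusted p = 8.61e-05), a fold of 7.21, and Cd74 fell by 2.66 (adjusted p = 0.00776), a fold of 6.32. H2-Ab1 fell 12.8-fold and 6.77-fold, H2-Eb1 9.59-fold and 5.07-fold, and H2-DMa (brighter probe set) 7.04-fold and 6.14-fold. H2-DMb2 fell at least 9.93-fold and 11.3-fold. The exception was the dimmer probe set of H2-DMa, at -0.57 (adjusted p = 0.280) and -0.41 (adjusted p = 0.479). Cd74 in NOD lost its call without NK replicate 1 (adjusted p = 0.0572) or spleen replicate 2 (adjusted p = 0.0618).

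NK markers were raised in the arrays labelled NK, with a summed intensity of 1781 to 3743 in the NK arrays against 493.8 to 875.0 in the spleens, although Ncr1 and Prf1 were at the level of absent transcripts. Other cells' markers were present as well. B cell sums of 2452 to 3905 compared with 1256 to 1676 in T cells. Of the 16 B cell markers 15 (B6g7) and 13 (NOD) were lower than in spleen, and Cd79a, Blnk and Ebf1 were at the level of absent transcripts. Granulocyte marker sums ran from 2439 to 9143 in B6g7 and from 408.8 to 20850 in NOD NK arrays. Macrophage and monocyte marker sums were 1818 to 3391 (B6g7) and 1629 to 3460 (NOD), against 1093 to 1629 in the spleens. Of those 16 markers, 3 were higher than in spleen and 0 lower in each background, and 9 were at the level of absent transcripts in the NK groups. Spleen and NK cells also differ in amplification rounds. Amplification and cell type cannot be told apart in this comparison, and the part of the other cells' RNA was not tested.

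The background made no detectable difference to any of these contrasts. In the 4 tests of the difference itself (limma), 0 of 7 probe sets passed, and 0 of 7 had an unadjusted p under 0.05. Of all probe sets, 0.0403% passed for infiltrate against spleen and 0.0161% for infiltrate against pancreatic T cells. For the T cell sites 0% passed, and for NK cells against spleen 0.00805%. An unadjusted p under 0.05 was reached by 1.2%, 3.14%, 2.83% and 0.451% of all probe sets, in the same order. The largest member values were in the NK contrast, at -1.20 for Cd74 (-3.03 to 0.63) and -0.96 for H2-Aa (-2.13 to 0.20). The infiltrate minus spleen contrast of Cd74 differed by -0.27 (-1.94 to 1.40).

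Of the other genes of the pathway, 28 were measured: 5 further class II chains, 8 transcription factors, 9 processing enzymes or their inhibitor and 6 costimulators. None passed between backgrounds in any population (limma), where 0.0483% to 0.274% of all probe sets did. At most 3 of 28 had an unadjusted p under 0.05, as did 1.25% to 6.96% of all probe sets. Against the spleen, 5 of 28 were lower in each infiltrate and 0 higher, with a median of -0.12 in B6g7 and -0.05 in NOD. Over all probe sets, 4.64% (B6g7) and 5.26% (NOD) were lower, with medians of 0.01 and 0.06. In B6g7, H2-DMb1 fell by 2.37 and H2-Ob and H2-Oa, the chains of the DM inhibitor H2-O, by 1.96 and 1.24. In NOD, H2-Ob fell by 2.37, H2-DMb1 by 2.24 and H2-Oa by 1.30. Ciita, the class II co-activator, fell by 0.87 in B6g7 (adjusted p = 0.00739, limma) and by 1.27 in NOD (adjusted p = 0.000281). Its infiltrate means, 6.02 and 6.03, were at the level of absent transcripts, so the falls are at least 0.34 and 0.75 by the bound. None of the 9 processing enzymes passed. Ctss, the protease that trims the invariant chain in antigen-presenting cells, averaged 11.40 in B6g7 and 10.89 in NOD infiltrates against 10.55 and 10.24 in the spleens.

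Against pancreatic T cells, 5 of 28 were higher in the B6g7 and 7 in the NOD infiltrate, with 0 lower and medians of 0.53 and 0.61. Over all probe sets, 2.33% and 2.87% were higher, with medians of -0.03 and -0.004. The T cell means of the genes named here were at the level of absent transcripts, so each size is a bound. H2-DMb1 was at least 5.02-fold higher in B6g7 and 5.63-fold in NOD, and Ifi30, the lysosomal thiol reductase, at least 2.53-fold and 2.21-fold. H2-Ob was at least 1.61-fold higher in B6g7, and Cd40, a costimulatory receptor, at least 1.51-fold in NOD. Ciita was not called in this comparison (0.49, adjusted p = 0.247, and 0.46, adjusted p = 0.194). Between T cell sites 0 of 28 passed in either background, and 1 (B6g7) and 3 (NOD) had an unadjusted p under 0.05. Over all probe sets, 0.652% and 18.2% had such a p.

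Against the spleen, NK cells were lower for 8 of 28 in B6g7 and 9 in NOD, with medians of -0.64 and -0.52. Over all probe sets, 7.43% and 7.48% were lower, with medians of 0.04 and 0.08. H2-DMb1 fell by 4.56 in B6g7 and fell by 4.26 in NOD. The NK means of H2-Ob, Ifi30 and Ciita were at the level of absent transcripts. H2-Ob was at least 6.24-fold and 6.75-fold lower, Ifi30 at least 4.73-fold and 3.89-fold, and Ciita at least 1.27-fold and 1.68-fold. A single pathway gene was higher, Nfyb, a subunit of the Y box factor NF-Y, in B6g7 (adjusted p = 0.0189, limma), at least 1.26-fold, with its spleen mean at the level of absent transcripts. H2-Ea lay between 3.37 and 4.06 in all 24 arrays, under the level of absent transcripts in every group.

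**Figure D5:**
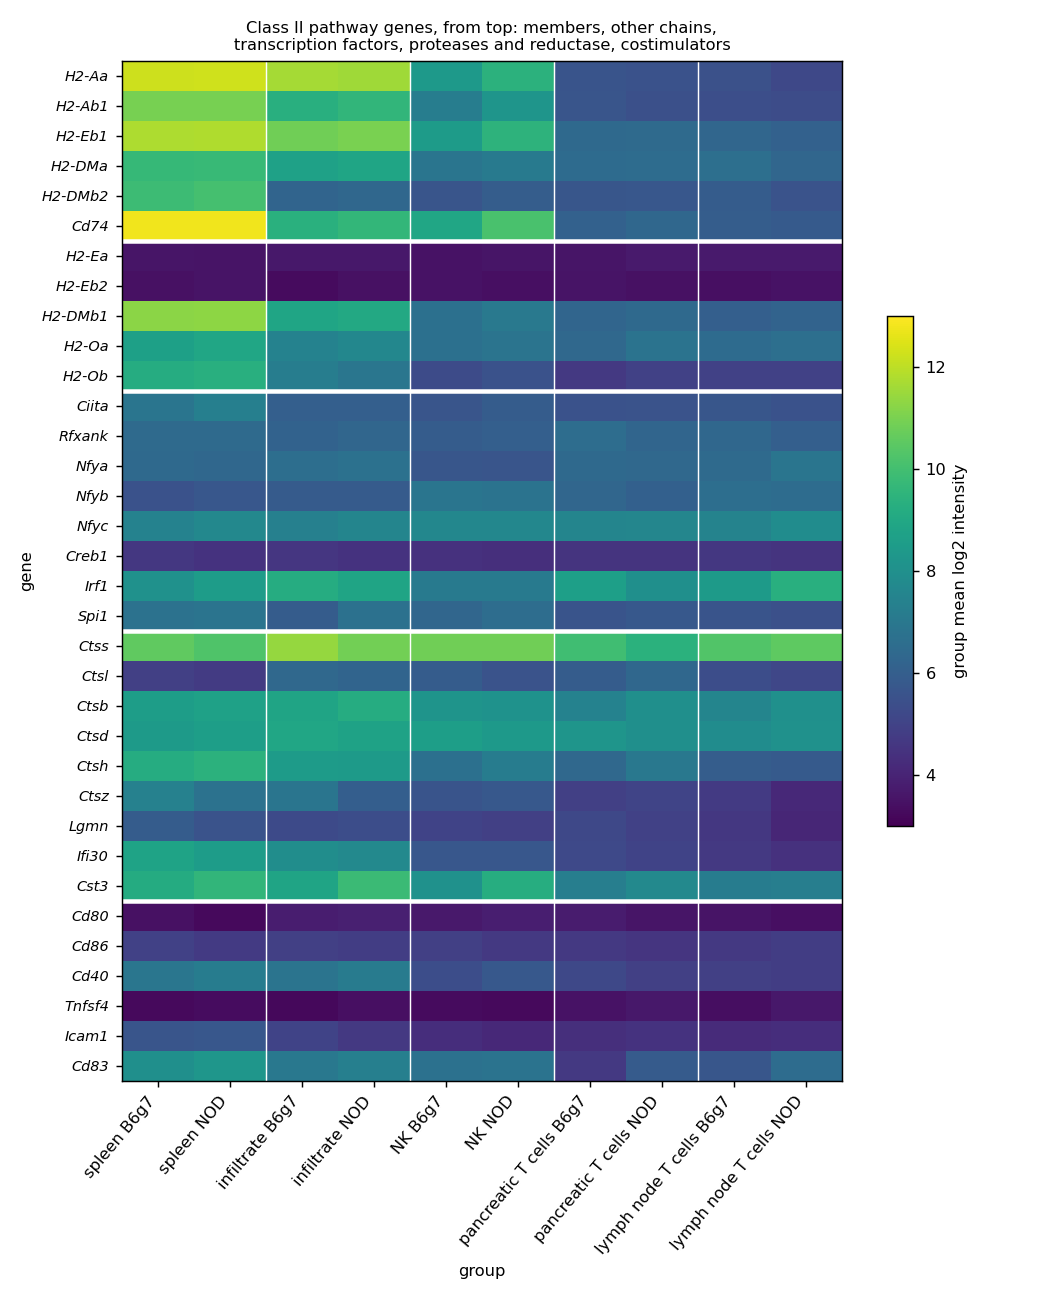
Group mean log2 intensity (colour) of the 6 class II genes and 28 further pathway genes (rows) in 10 groups (columns), each gene by its probe set with the highest mean; colours compare groups within a row, not genes. H2-DMb1, H2-Oa, H2-Ob and Ifi30 are highest in spleens, and H2-Ea is dark throughout, between 3.37 and 4.06 in all arrays.

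Among themselves, the members varied in the same direction over the 24 arrays, which share populations and amplification. Pearson's r with H2-Aa was 0.99 for H2-Eb1, 0.98 for H2-Ab1, 0.93 for H2-DMa (brighter probe set), 0.91 for Cd74, 0.89 for H2-DMa (dimmer) and 0.66 for H2-DMb2. Within the 6 infiltrates it was 0.96 for H2-Eb1, 0.90 for H2-Ab1 and 0.92 for Cd74, but 0.77 for H2-DMb2 and 0.66 and 0.20 for the brighter and dimmer H2-DMa probe sets. Of 8245 other genes, the 10 closest to the members' mean over 24 arrays were Cd22 (r = 0.99), Igkv6-23 (0.99), Cd79b (0.99), Lmo2 (0.97), Syk (0.97), Plcg2 (0.97), Fcer2a (0.96), Blk (0.96), Il10ra (0.96) and Irf5 (0.95). Cd22, Cd79b, Fcer2a and Blk are on the B cell list, and Igkv6-23 is an immunoglobulin light chain gene. Cd22, an inhibitory B cell receptor, averaged 8.68 and 8.93 in the B6g7 and NOD spleens, 7.19 and 7.62 in infiltrates, 6.36 and 6.74 in NK cells and 4.71 to 4.98 in T cells. That order of populations was the one seen for H2-Aa, which follows from picking Cd22 for its likeness to the members. By Spearman's correlation 6 of these 10 genes, and over the 10 group means 8 of them, were again among the closest 10.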

How the data were processed

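RNA was profiled on Affymetrix-type arrays of 12488 probe sets. The deposited table gives linear intensity per probe set, with 1 column per array, and was not normalized further. RMA is named for 11 of 24 arrays in the submitters' processing notes, while for the other 13 no method is named in the sources used here. Median intensity per array ran from 35.1 to 39.1, and the lowest intensity was 5.70, so log2 was taken without a pseudocount. After 66 controls were left out, 12422 probe sets were tested, 10833 of them annotated to 1 gene, 396 to several and 1193 to none.

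Group means were fitted to all 24 arrays with limma 3.58.1 (lmFit, eBayes) in R 4.3.3. Each of 17 comparisons was adjusted separately by Benjamini-Hochberg over all probe sets, two-sided, at 0.05. The scripts were tested on simulated data. A gene with several probe sets was represented in lists by the one with the highest mean. Named pathway genes were Ciita, H2-Ea, H2-DMb1 and up to 3 per direction and comparison by size of change. Ctss falls outside this rule and was chosen after its values were seen. The members, lists and tests were chosen with earlier results of these data known. Same-numbered T cell arrays of pancreas and lymph node in NOD deviated together (correlations 0.34, 0.36 and 0.29). Same-numbered infiltrates of B6g7 and NOD, which are different mice, gave 0.42, 0.003 and 0.545, and their pancreatic T cells 0.65 and 0.22. The correlations therefore do not show that the numbers pair arrays. As an alternative, the replicate number was fitted as a block shared by all 24 arrays, which is not a paired test. Alternatives were other scalings, filters, priors, blocks, subsets of groups and left-out arrays.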

Additional observations from a re-analysis of the deposited data

How the results depend on the processing

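No class II result changed direction beyond the threshold under any alternative tried. Of the values under settings other than leaving out 1 array, 997 kept their side of the threshold, 4 gained a call and 7 lost one; with 1 array left out, 705 kept it and 9 lost it. The count of class II probe sets higher in the B6g7 infiltrate than in pancreatic T cells fell from 5 to 3 when only the compared groups were fitted, where H2-DMa (brighter probe set) had an adjusted p of 0.0542 and Cd74 of 0.0953 (limma). It also fell to 3 without the arrays carrying liver transcripts, an alternative chosen after seeing the data. With 1 array left out the count ranged from 4 to 5 there, from 5 to 6 in NOD, from 2 to 3 for infiltrate against spleen in each background and from 5 to 6 for NOD NK cells against spleen. Where this left 1 array in a group, that array was taken to vary as other groups do. H2-Ab1 lost its call against the NOD spleen under quantile normalization (-1.04, adjusted p = 0.0720) and with serial code runs as a random block (-1.45, adjusted p = 0.0700). With the replicate number as a block, every count of class II calls was the same as without it (3 and 3 against the spleen, 5 and 6 against T cells, 6 and 6 for NK cells), and Cd74 differed from the spleen by -3.22 in B6g7. The cause was not tested for any of these changes. With the level of absent transcripts at the 75th or 95th percentile, 7 or 34 of 70 group means lay under it. Of the group means of all probe sets, 56.1% or 84.1% did. H2-Aa in the B6g7 infiltrate was then 66.4-fold or at least 22.2-fold higher than in T cells. The first is a fold of means, since the T cell mean lay above the level at the 75th percentile. Counts over all probe sets moved more. Across the alternatives that keep every single array or leave out those with liver transcripts, the count between infiltrates ran from 6 to 115 (34 as reported), and those against the spleen from 370 to 1374 in B6g7 (942) and from 372 to 1517 in NOD (1133). Against pancreatic T cells the count ran from 84 to 449 in B6g7 (337) and from 86 to 520 in NOD (401), and for NK cells from 823 to 2654 in B6g7 (1437) and from 669 to 3086 in NOD (1389). Between backgrounds it ran from 2 to 50 in spleens (9), 0 to 31 in NK cells (6), 0 to 29 in pancreatic T cells (18) and 0 to 34 in lymph node T cells (16), and between NOD T cell sites from 0 to 67 (2).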
